A study of Mus musculus with 10 samples.

Results

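The accessible chromatin around 10 genes of the transforming growth factor-β (TGF-β) pathway was described in cells of the developing mouse heart. The genes comprise the ligand genes Tgfb1, Tgfb2, Tgfb3 and Inhba, the latency protein gene Ltbp1, the receptor genes Tgfbr1, Tgfbr2 and Tgfbr3, and the intracellular effector genes Smad3 and Smad7. Accessible regions, each a summit with 250 bp on either side, were taken as a gene's regions where the summit lay inside the gene or within 25 kb of it on mm10, and 247 of the 184764 regions of all 9 libraries met that rule. Accessibility was measured by bulk ATAC-seq, in which a transposase cuts open chromatin and tags the fragments for sequencing. The 9 libraries, made from 10 samples, fall into 3 groups of 3: epicardium at E11.5, epicardium at E17.5, and epicardium-derived cells (EPDCs), 1 library from E12.5 and 2 from E13.5. Every embryo was Rosa26tdTomato;Wt1CreERT2/+ and its mother received 100 mg/kg tamoxifen by gavage at E9.5, so that tdTomato marks descendants of cells that expressed Wt1 at that time; no group without this allele or without tamoxifen was analysed. The strain is given as C57BL/6J. Epicardial cells were sorted as CD31-tdTomato+PDPN+ and EPDCs as CD31-tdTomato+PDPN-. Each sample pooled littermate hearts (6 at E11.5, 4 at E17.5, 4 to 13 at E13.5), so the spread between libraries is a spread between pools. The E13.5 range is that of the labels, where the methods give 9 to 13. The E13.5 library numbered 2 was called on 2 technical replicates merged into 1 list and counts once.

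The EPDC lists alone hold summits outside the main chromosomes (252 to 268 each, against 0 in the epicardial lists). The labels do not say whether they were processed separately. If they were, population and processing cannot be told apart in any comparison of EPDCs with epicardium. The lists held 94909 to 142743 summits each and gave no read totals; by the scale factors computed here the deepest library, E13.5 EPDC 2, was at 2.56 and the shallowest, E17.5 epicardium 1, at 0.615. Among 9 epicardial marker promoters, 8 were called in each E11.5 library, 9 in each E17.5 library and 7 or 8 in each EPDC library, with summed levels of 1897 to 2015, 2703 to 2877 and 1296 to 1818 normalised fragments. The 7 mesenchymal promoters summed to 1104 to 1148 at E11.5 (6 called), 1357 to 1548 at E17.5 and 1358 to 1566 in EPDCs (7 called). Of 5 cardiomyocyte promoters, 4 were called in epicardium and 3 in EPDCs, with sums of 480.5 to 493 at E11.5, 301 to 331 at E17.5 and 420.5 to 438.5 in EPDCs. Endothelial sums (2 of 5 called) were 272.5 to 299.7, 327 to 362 and 361 to 377, and blood sums (1 of 5) lay between 42.05 and 77.99 in all libraries. No summit was called at the defining promoters of Pecam1, Cdh5, Tie1, Ptprc, Gata1, Spi1, Csf1r and Myh6 in any library. These marker levels moved with stage and population, and their part in the results below was not tested; a change in the share of cells with an open region and a change within each cell cannot be told apart in bulk samples.

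TGF-β ligands are secreted in a latent form, bound to their own propeptide and to a latent TGF-β binding protein such as Ltbp1, which anchors the complex in the extracellular matrix. Released ligand binds the type II receptor Tgfbr2, which activates the type I receptor kinase Tgfbr1, and the co-receptor Tgfbr3 (betaglycan) presents ligand to them. The activated receptor phosphorylates Smad3, which enters the nucleus with a partner SMAD and binds DNA, while Smad7 blocks the receptor and is itself switched on by the signal. Inhba encodes the subunit of activin A, a related ligand that also acts through Smad3. In the epicardium the pathway is best known for driving epithelial-to-mesenchymal transition, by which epicardial cells become EPDCs.

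A region is named below by its gene and the distance of its summit from the gene's annotated start, counted along the gene's strand. Leaving Smad7 aside, the 6 intronic or intergenic regions touching no exon and with the largest differences in each direction between stages or populations are shown as 201 bases around their summit, because the results on the receptors, Smad3 and Ltbp1 turn on them. The sequences are the mm10 plus strand; capitals mark exact matches, on either strand, to one of 6 motifs searched (GTCTAGAC and CAGACA of SMAD proteins, TGANTCA of AP-1, GGAATG of TEAD, AGATAA of GATA and CAGCTG of E-box proteins).
Tgfbr2 +22.3 kb, chr9:116152987-116153187: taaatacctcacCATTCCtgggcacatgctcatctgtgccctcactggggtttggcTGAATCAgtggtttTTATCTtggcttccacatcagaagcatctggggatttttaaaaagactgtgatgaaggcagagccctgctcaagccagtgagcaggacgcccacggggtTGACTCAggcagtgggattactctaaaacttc
Tgfbr1 +54.2 kb, chr4:47407309-47407509: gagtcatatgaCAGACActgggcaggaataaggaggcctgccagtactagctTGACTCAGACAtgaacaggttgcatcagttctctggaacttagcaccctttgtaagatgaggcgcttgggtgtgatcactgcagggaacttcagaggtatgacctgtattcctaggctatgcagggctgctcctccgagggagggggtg
Tgfbr3 +21.0 kb, chr5:107268503-107268703: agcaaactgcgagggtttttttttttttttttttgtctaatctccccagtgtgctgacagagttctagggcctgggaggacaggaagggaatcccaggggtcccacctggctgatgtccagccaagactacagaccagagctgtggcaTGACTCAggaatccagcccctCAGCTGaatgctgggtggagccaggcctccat
Ltbp1 +28.4 kb, chr17:75033854-75034054: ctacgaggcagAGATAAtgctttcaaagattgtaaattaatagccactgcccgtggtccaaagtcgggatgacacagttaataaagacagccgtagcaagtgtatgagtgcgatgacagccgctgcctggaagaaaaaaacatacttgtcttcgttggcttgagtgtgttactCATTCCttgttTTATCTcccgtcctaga
Smad3 +55.3 kb, chr9:63702640-63702840: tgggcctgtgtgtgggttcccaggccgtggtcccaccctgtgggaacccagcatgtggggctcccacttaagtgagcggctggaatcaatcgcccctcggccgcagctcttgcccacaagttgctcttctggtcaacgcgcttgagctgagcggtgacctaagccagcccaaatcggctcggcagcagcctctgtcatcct
Smad3 -22.4 kb, chr9:63780280-63780480: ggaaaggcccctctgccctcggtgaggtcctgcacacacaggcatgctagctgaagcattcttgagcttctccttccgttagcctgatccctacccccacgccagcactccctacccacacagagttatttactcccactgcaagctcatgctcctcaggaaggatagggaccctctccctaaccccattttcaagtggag
The first sequence, from a Tgfbr2 intron, holds 2 AP-1 matches, which start 44 bases before and 69 bases after the summit base. In the Tgfbr1 sequence an AP-1 match and a CAGACA overlap and were counted as 1 match to each motif. Neither Smad3 sequence holds any of the 6 motifs within 100 bases of its summit. Over the full width of the regions, the CAGACA box was in 37.2% of the 247 members and 41.5% of all regions, the AP-1 motif in 20.6% and 22.8%, the TEAD motif in 38.1% and 33.1%, the GATA motif in 31.2% and 29.8%, and the E-box in 36.4% and 33.5%. The SMAD palindrome was in 3 members (1.21%) and in 0.489% of all regions. These shares are descriptions without a test, and a match is not evidence of binding.

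On mm10 the genes lie at chr7:25687002-25705077 (Tgfb1), chr1:186622792-186705989 (Tgfb2), chr12:86056745-86079041 (Tgfb3), chr13:16011851-16031621 (Inhba), chr17:75005568-75392512 (Ltbp1), chr4:47353222-47414931 (Tgfbr1), chr9:116084293-116175360 (Tgfbr2), chr5:107106570-107289629 (Tgfbr3), chr9:63646767-63757994 (Smad3) and chr18:75367529-75395935 (Smad7). Their 247 regions were 163 intronic, 49 intergenic, 23 at a promoter of the gene itself (within 1 kb of a protein-coding transcript start), 4 at a promoter of a neighbouring gene and 8 in a UTR or coding exon. Ltbp1, the longest gene, held 48, Smad3 43, Tgfbr3 33, Tgfb2 32, Smad7 25, Tgfbr2 18, Tgfbr1 16, Tgfb1 15, Tgfb3 11 and Inhba 6. Per 100 kb of window, Smad7 was the densest with 31.9 regions, followed by Smad3 with 26.7 and Tgfb2 with 24.02, while Ltbp1 had 11 and Inhba 8.60; the 10 windows together had 16.4. A summit was called in all 9 libraries in 65 of the 247 (26.3%), against 24.7% of all regions, and in a single library in 30 (12.1%), against 16.6%. Of all summits of a library, 0.125%, 0.127% and 0.133% lay in these windows at E11.5, against 0.163%, 0.161% and 0.159% at E17.5. Every E17.5 library was above every E11.5 library, and the mean difference of 0.0328 percentage points had p = 0.1 by a two-sided exact permutation test, the smallest that 3 against 3 libraries can give. EPDC libraries had 0.135%, 0.148% and 0.150%, between the epicardial stages and not different from all epicardial libraries together (difference -0.000325 percentage points, exact permutation p = 0.96; the smallest possible is 0.0119).

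**Figure D1:**
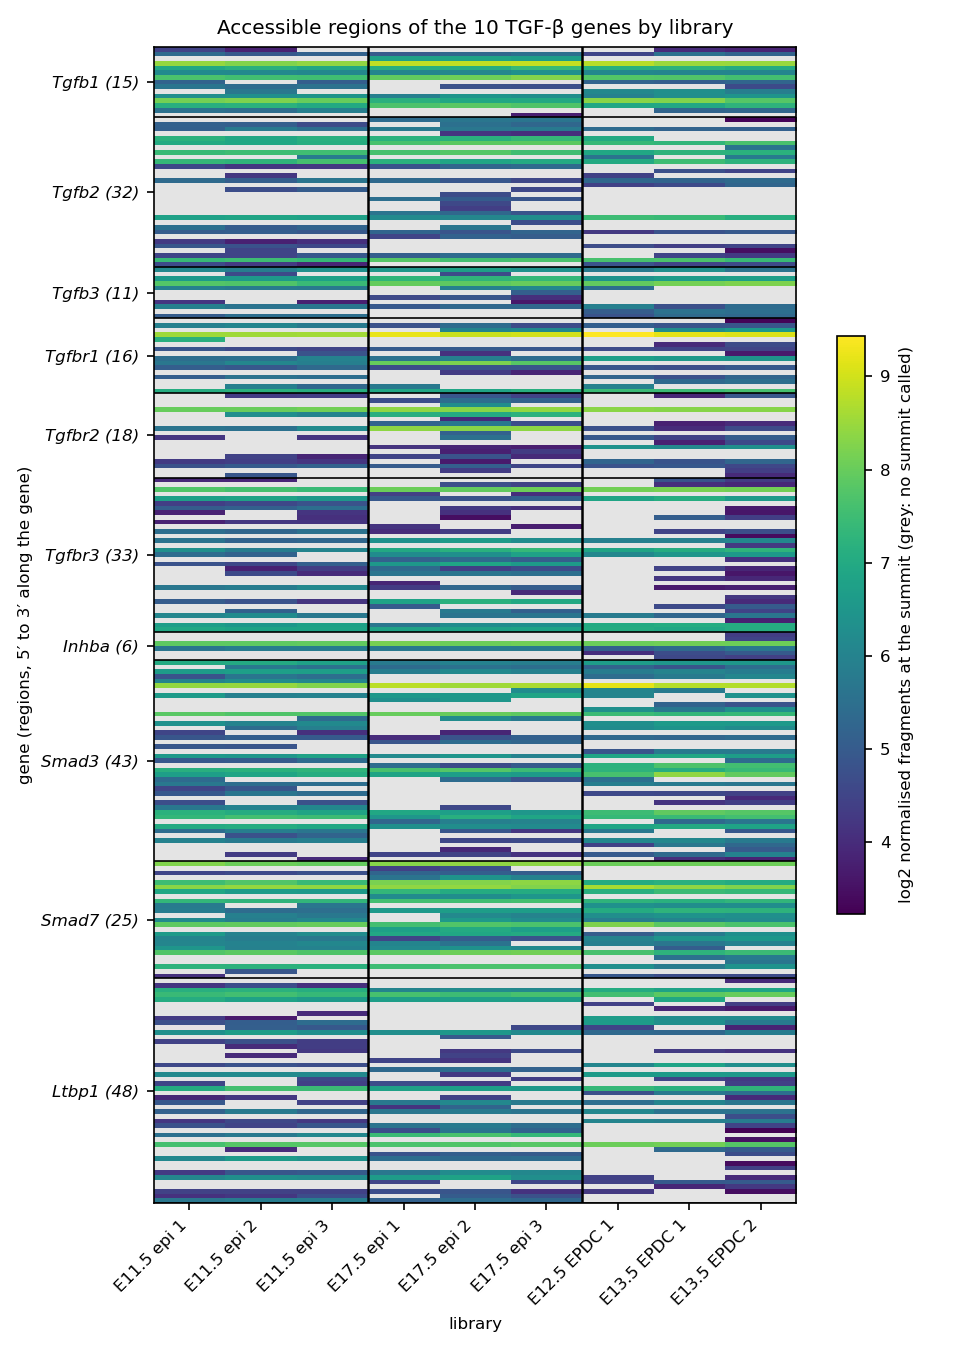
Accessibility of the 247 regions (lines, grouped by gene and ordered along it) in the 9 libraries (columns), as log2 normalised fragments at the summit; grey marks a region with no summit called. The strongest promoter of each gene appears as a bright line across all libraries, while some other promoter regions were uncalled in part of them. Of the 247 regions, 30 were called in 1 library only.

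Values are fragments covering the summit, divided by a scale factor for each library (normalised fragments). Where no summit was called, accessibility was below the caller's threshold, which is not evidence of closed chromatin; the weakest called summit of a library had between 9.38 and 16.6 normalised fragments. With 3 libraries a group, adjusted p-values (Benjamini-Hochberg over all regions tested) come from limma on log2 values.

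At the promoters of the 10 genes, every library had an open region, and each gene is described by its strongest one, which for Ltbp1 is Ltbp1 +172.9 kb, at an internal start and not the annotated one. The highest levels were at Tgfbr1 (368 to 692 normalised fragments over the 9 libraries) and Smad3 (307 to 577), and the lowest at Tgfb1 (119 to 169.5). From E11.5 to E17.5, 6 of these 10 promoter regions rose, none fell, and those of Tgfb1, Inhba, Smad7 and Ltbp1 did not pass the test. With scaling by genome background the regions of Tgfb1 (0.43, adjusted p = 0.015) and Inhba (0.41, 0.0052) were called higher, while Smad7 -0.9 kb was called lower by cyclic loess (-0.35, 6.90e-04), rank percentile and fold enrichment. Ltbp1 +172.9 kb was called lower by rank percentile (-3.29 percentile points, adjusted p = 0.041). Over all genes with a promoter region in all 6 libraries, 49.9% rose and 11.7% fell, so the count of 6 of 10 was near that of promoters in general. The direction of the smaller promoter differences depended on the scaling: by cyclic loess 1 promoter was higher and 1 lower, by rank percentile 1 and 2, and by fold enrichment 0 and 2. Of all 15 promoter regions of the members in the test, 7 rose and 1 fell (Smad3 +90.7 kb). The additional rise was at a weaker summit nearer the Smad7 start, Smad7 -0.1 kb, with 122, 100.1 and 96.3 normalised fragments at E11.5, 162, 131 and 133 at E17.5 and 141, 177 and 164 in EPDCs (log2 difference 0.39 between stages, adjusted p = 0.012, and 0.39 in EPDCs against epicardium, 0.0093). EPDCs passed the test there against E11.5 alone (0.60, adjusted p = 0.0010) and not against E17.5 alone (0.18, adjusted p = 0.30). Its stage difference turned negative, without a call, by rank percentile (-0.60 percentile points), by fold enrichment (-0.11) and with overlapping intervals (-0.093), and its call was lost without E11.5 replicate 2 (0.34, adjusted p = 0.058), E11.5 replicate 3 (0.31, 0.069) or E17.5 replicate 1 (0.33, 0.0504). Its EPDC call was lost with scaling by genome background, with overlapping intervals and without E13.5 EPDC 1 (0.35, 0.0512). It was chosen after its values were seen.

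Tgfb2, whose ligand depends most on the co-receptor Tgfbr3, had the largest difference between stages among the strongest promoters. Its promoter region Tgfb2 +0.6 kb held 131, 121 and 136 normalised fragments at E11.5, against 199.8, 235 and 236 at E17.5 (log2 difference 0.76 ± 0.12 (SE), adjusted p = 2.46e-07), and the stages did not overlap. EPDCs were in between, at 168, 159 and 200.5, and did not differ from the mean of the epicardial stages (log2 difference 0.05 ± 0.11 (SE), adjusted p = 0.73). By fold enrichment over local background the stage difference at this promoter did not pass the test. The other Tgfb2 promoter region, Tgfb2 -0.0 kb, nearer the annotated start, did not pass the test between stages (0.10, adjusted p = 0.48). It was called higher with genome background scaling (0.36, 0.034) and overlapping intervals (0.64, 1.75e-05). By cyclic loess, rank percentile and fold enrichment it was negative without a call. In EPDCs only the E12.5 library had a summit there. This region was chosen after its values were seen.

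The promoter of Tgfbr1, the type I receptor kinase, held 368, 375 and 379.6 normalised fragments at E11.5, against 603, 491 and 514 at E17.5 (log2 difference 0.48 ± 0.11 (SE), adjusted p = 1.34e-04). In EPDCs it held 692, 578 and 552, above the epicardial mean (log2 difference 0.44 ± 0.10 (SE), adjusted p = 4.97e-04). Both calls were lost by rank percentile and by fold enrichment, the first also by cyclic loess and the second also with scaling by genome background. The promoters of Tgfbr2 (0.31 between stages, adjusted p = 0.0079), Tgfbr3 (0.39, 0.0018), Tgfb3 (0.27, 0.031) and Smad3 (0.24, 0.043) rose by less on the log2 scale, and each was negative by rank percentile and fold enrichment, Tgfbr2 with a call in that opposite direction by fold enrichment (-0.29, adjusted p = 0.035). The Tgfb3 call was lost without E11.5 replicate 3 (0.15, adjusted p = 0.25) or E17.5 replicate 3 (0.27, 0.062), and the Smad3 call without any library but E17.5 replicate 2 (0.18 to 0.27, adjusted p = 0.053 to 0.21). Inhba stayed within 239 to 248 normalised fragments at E11.5, 266 to 288 at E17.5 and 264 to 270.4 in EPDCs, without a call in either comparison as normalised here. In EPDCs against epicardium, 5 of the 10 promoters were higher (Tgfb3, Tgfbr1, Tgfbr3, Smad3 and Ltbp1 +172.9 kb) and none lower, where 25.4% of all promoters were higher and 14.4% lower. None of the 5 passed the test against E17.5 epicardium alone (0.12 to 0.23, adjusted p = 0.084 to 0.33), and against E11.5 alone all but Ltbp1 +172.9 kb did (0.46 to 0.69; Ltbp1 0.25, adjusted p = 0.061). The region at the annotated Ltbp1 start, Ltbp1 -0.1 kb, was also higher in EPDCs (0.29, adjusted p = 0.019), a call lost with scaling by genome background (where it was -0.029), by rank percentile and by fold enrichment. That call was also lost without E13.5 EPDC 1 (0.29, adjusted p = 0.052) or E13.5 EPDC 2 (0.20, adjusted p = 0.15), and this region was chosen after its values were seen. Of the 5 calls, Tgfb3 was lost without E13.5 EPDC 2 (0.25, adjusted p = 0.059) and Ltbp1 +172.9 kb (0.23) without any one of 5 libraries, namely E11.5 replicate 1, E17.5 replicates 1 and 2, E12.5 EPDC 1 and E13.5 EPDC 1 (0.20 to 0.23, adjusted p = 0.064 to 0.15). With libraries scaled by their genome background none of the 10 promoters was higher. The 1 lower was Smad7 -0.9 kb (-0.28, adjusted p = 0.041), which is not among the 5. By rank percentile none was higher and none lower, and by fold enrichment 1 was higher.

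**Figure D2:**
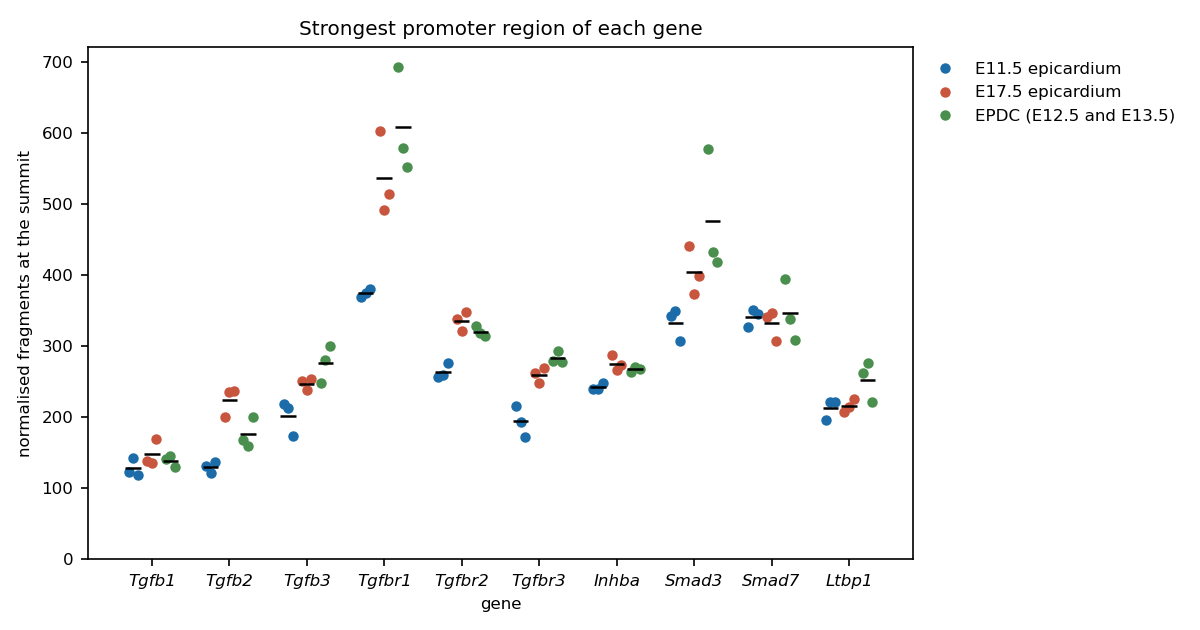
Normalised fragments at the strongest promoter region of each gene (horizontal axis) in each of the 9 libraries (points, by group), with the mean of each group of 3 as a black bar. Tgfb2 and Tgfbr1 show separate E11.5 and E17.5 points, and the Inhba points of all groups lie between 239 and 288.

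The 83 member regions with a summit in all 6 epicardial libraries were compared between E17.5 and E11.5, to ask which elements around these genes changed as the epicardium matured. Of these, 30 rose (36.1%), 20 fell (24.1%) and 33 did not pass the test, where 29.8% of all 57768 regions tested rose and 29.5% fell. At least 2-fold, 9 rose (10.8%) and 7 fell (8.43%), against 5.41% and 10.5% of all regions. The split depended on the scaling, with 43 higher and 12 lower when libraries were scaled by their genome background (24257 and 9959 of all regions), 15 and 21 by rank percentile (6209 and 17718), and 16 and 14 by fold enrichment (9696 and 10069). The median log2 difference was 0.14 over the members and 0.0052 over all regions. All 9 regions that rose at least 2-fold were intronic, in Tgfbr1, Tgfbr2, Tgfbr3, Ltbp1 and Smad7. Of the 7 that fell this much, 4 were intergenic, 2 intronic in Tgfbr3 and 1 in a UTR. Among the 83 tested, 43 were intronic and 18 intergenic. How all regions with such changes divide by position was not counted, so these positions cannot be called particular to these genes.

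The largest differences between stages were in the receptor genes. Tgfbr2 +22.3 kb, an intronic region of the type II receptor and the first sequence above, held 49.0, 46.6 and 73.7 normalised fragments at E11.5, against 335, 321 and 334 at E17.5 (log2 difference 2.54 ± 0.14 (SE), adjusted p = 4.93e-21). At E17.5 it was about as accessible as the Tgfbr2 promoter, which held 338, 321 and 347. EPDCs held 26.8, 15.8 and 24.6, below every epicardial library of either stage (log2 difference -2.63 ± 0.18 (SE), adjusted p = 6.80e-12 against the mean of both stages). These calls were kept under every alternative in which they were fitted.

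Tgfbr1 +54.2 kb, an intronic region of the type I receptor shown above with its overlapping AP-1 and CAGACA matches, held 51.2, 67.4 and 60.1 normalised fragments at E11.5, against 257, 294 and 228 at E17.5 (log2 difference 2.09 ± 0.13 (SE), adjusted p = 2.99e-18). No EPDC library had a summit or an overlapping interval there. A neighbouring intronic region, Tgfbr1 +49.2 kb, had the other pattern: 44.7, 45.6 and 63.5 at E11.5, 47.1, 60.2 and 43.7 at E17.5 and 107, 95.1 and 86.0 in EPDCs, with no overlap between EPDCs and epicardium. It did not pass the test between stages (log2 difference -0.05 ± 0.19 (SE), adjusted p = 0.82), although it was called lower at E17.5 by fold enrichment (-0.81, adjusted p = 8.20e-04) and by rank percentile (-19.7 percentile points, 0.032). It was higher in EPDCs (log2 difference 0.93 ± 0.17 (SE), adjusted p = 3.67e-05). Upstream of the gene, Tgfbr1 -7.6 kb fell between stages (log2 difference -1.01 ± 0.20 (SE), adjusted p = 4.01e-05), from 61.0, 66.4 and 55.5 normalised fragments to 27.6, 42.9 and 25.0.

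Along Tgfbr3, the co-receptor gene, regions moved in both directions. In its 3′ part Tgfbr3 +168.3 kb went from 32.7, 27.7 and 18.1 normalised fragments at E11.5 to 114, 147 and 126 at E17.5 (log2 difference 2.30 ± 0.19 (SE), adjusted p = 1.33e-14), and only 1 EPDC library, E13.5 EPDC 2, had a summit there, with 15.6. Tgfbr3 +132.0 kb went from 28.3, 23.8 and 35.1 to 92.6, 118 and 97.8 (log2 difference 1.80 ± 0.19 (SE), adjusted p = 1.20e-11) and was called in no EPDC library. Tgfbr3 +121.8 kb (1.05, adjusted p = 4.16e-08) and Tgfbr3 +89.2 kb (1.02, 3.11e-06) rose by about 1 on the log2 scale and were called in all EPDC libraries. By fold enrichment the call of Tgfbr3 +121.8 kb was lost (0.29, adjusted p = 0.13).

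Near the 5′ end of the same gene, Tgfbr3 +21.0 kb fell. It held 107, 112 and 91.8 normalised fragments at E11.5, 30.9, 28.3 and 35.4 at E17.5 (log2 difference -1.75 ± 0.18 (SE), adjusted p = 7.91e-12) and 114.7, 138 and 99.7 in EPDCs. EPDCs were above E17.5 epicardium (log2 difference 1.89, adjusted p = 1.06e-09) and not different from E11.5 (0.17, 0.42). Tgfbr3 +160.1 kb fell as well, from 51.2, 57.5 and 70.3 to 19.5, 39.2 and 33.3 (log2 difference -1.04 ± 0.22 (SE), adjusted p = 5.46e-05), a call lost by fold enrichment.

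**Figure D3:**
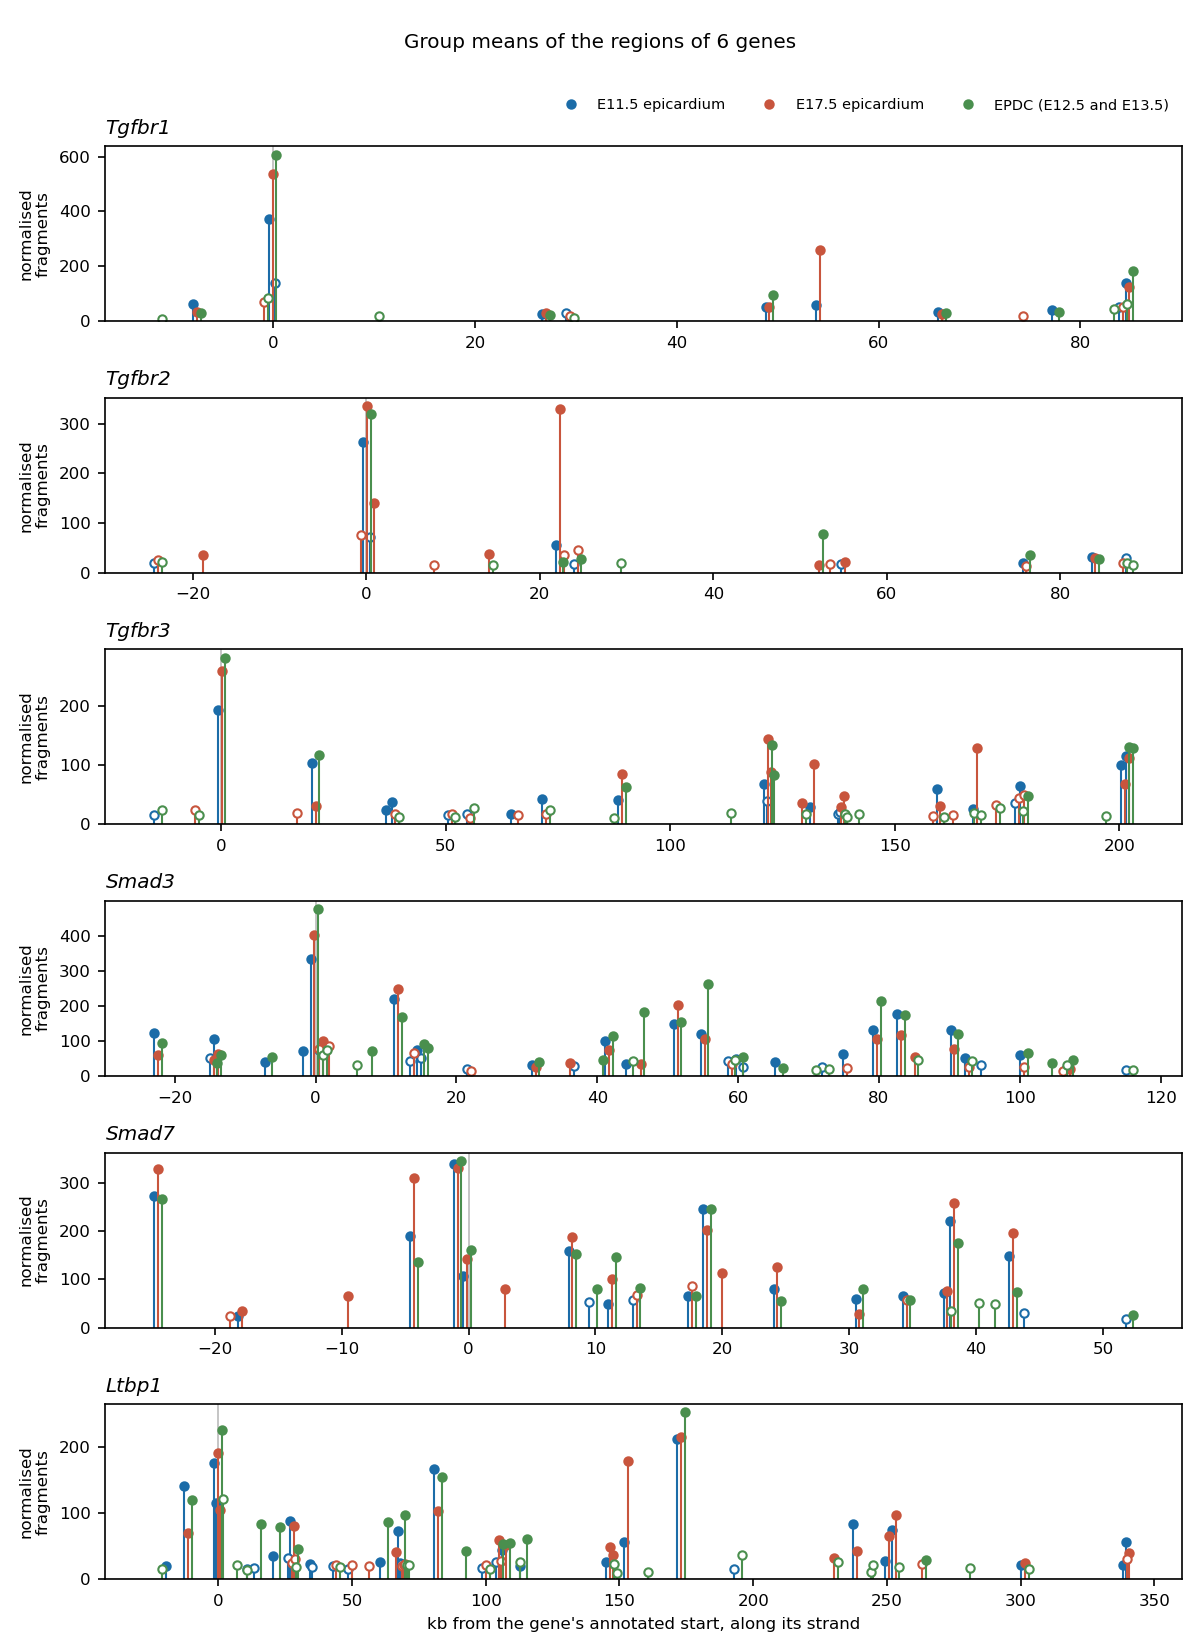
Mean normalised fragments of each group (coloured stems; filled circles where all 3 libraries had a summit, open circles where 1 or 2 had) against the distance from the gene's annotated start in kb along its strand, for 6 of the genes. The E17.5 stems stand out at Tgfbr1 +54.2 kb, Tgfbr2 +22.3 kb and Ltbp1 +153.1 kb, and the EPDC stems at Smad3 +46.2 kb and +55.3 kb.

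Ltbp1, which codes for the protein that tethers latent TGF-β to the matrix, had 3 regions that rose, 4 that fell and 7 that did not pass the test between stages; by cyclic loess 5 rose and 3 fell, and with scaling by genome background 6 and 3. Ltbp1 +153.1 kb held 45.8, 53.5 and 69.1 normalised fragments at E11.5, against 175.5, 199.9 and 163 at E17.5 (log2 difference 1.66 ± 0.15 (SE), adjusted p = 1.66e-13), with no summit in EPDCs. The same order was seen at lower levels at Ltbp1 +250.6 kb (19.6, 29.7 and 31.7, then 52.0, 74.8 and 68.6), also uncalled in EPDCs (log2 difference 1.25 ± 0.21 (SE), adjusted p = 1.55e-06). Upstream of the gene, Ltbp1 -11.4 kb fell from 142, 146 and 137 to 65.0, 74.8 and 69.7 (log2 difference -1.05 ± 0.14 (SE), adjusted p = 9.97e-09), and EPDCs held 131, 112 and 117. The intronic Ltbp1 +82.1 kb, the strongest region outside its promoters, fell from 133, 192 and 177 to 110.5, 106 and 91.5 (log2 difference -0.73 ± 0.13 (SE), adjusted p = 9.62e-06), but by fold enrichment the difference was positive and did not pass the test (0.16, adjusted p = 0.19).

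Smad3, the signal-transducing effector, had 12 regions in the comparison of stages, of which 6 fell, 3 rose and 3 did not pass the test; its median log2 difference was -0.36. By rank percentile none rose and 4 fell, and by fold enrichment 1 rose and 1 fell. The largest was Smad3 -22.4 kb, upstream of the gene and the last sequence above, which fell from 129.7, 129.8 and 109.9 normalised fragments to 55.2, 63.0 and 59.3 (log2 difference -1.09 ± 0.15 (SE), adjusted p = 2.56e-08). Smad3 -13.9 kb fell too (log2 difference -0.74 ± 0.15 (SE), adjusted p = 4.92e-05), a call lost by fold enrichment (-0.22, 0.15), as did Smad3 +90.7 kb at an internal promoter (log2 difference -0.80 ± 0.14 (SE), adjusted p = 3.57e-06), for which fold enrichment gave a positive difference without a call (0.15, adjusted p = 0.35).

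Smad7, the inhibitory SMAD, had 6 regions that rose, 2 that fell and 5 that did not pass the test, and a median of 0.24. This count depended on the scaling: by rank percentile 2 rose and 3 fell, and by fold enrichment 1 rose and 3 fell. Smad7 +11.3 kb, in an intron, rose from 56.7, 42.6 and 45.3 to 94.2, 103 and 103 (log2 difference 1.03 ± 0.17 (SE), adjusted p = 6.99e-07) and was higher still in EPDCs, at 133, 155 and 152. The upstream Smad7 -4.3 kb rose from 181, 217 and 173 to 291, 311 and 333 (log2 difference 0.68 ± 0.11 (SE), adjusted p = 4.84e-07), a call lost by fold enrichment. Beyond its 3′ end, Smad7 +30.8 kb fell from 65.4, 58.5 and 52.1 to 22.7, 32.9 and 28.1 (log2 difference -1.12 ± 0.20 (SE), adjusted p = 7.34e-06).

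Among the ligands, Tgfb2 +42.5 kb, intronic, fell from 110.1, 114.9 and 109.9 to 73.1, 67.5 and 78.0 (log2 difference -0.65 ± 0.15 (SE), adjusted p = 1.66e-04), a call lost with scaling by genome background (-0.39, 0.055). In the Tgfb1 window, the only fall was Tgfb1 +25.0 kb, from 282, 300.2 and 254 to 143, 121 and 126 (log2 difference -1.13 ± 0.11 (SE), adjusted p = 4.08e-12). That summit lies in a UTR of the neighbouring gene Ccdc97, and the promoters of Tmem91, B9d2 and Ccdc97 also lie in the Tgfb1 window, so its regions cannot be assigned to Tgfb1. In the Tgfb3 window, 3 of 4 regions rose and 1 fell, none by 2-fold. Of these, Tgfb3 -0.2 kb is the gene's own promoter, while Tgfb3 -3.6 kb and Tgfb3 -12.9 kb lie at the promoter and in an intron of Ift43 and the region that fell, Tgfb3 +41.5 kb, lies in an intron of Ttll5, so these 3 cannot be assigned to Tgfb3. By rank percentile or fold enrichment 1 rose and none fell. The strongest distal region of the window, Tgfb3 -12.9 kb, went from 69.8, 58.5 and 81.6 to 91.0, 108 and 84.2 (log2 difference 0.40 ± 0.16 (SE), adjusted p = 0.027), a call lost by rank percentile and without E11.5 replicate 1 (0.39, adjusted p = 0.059), E11.5 replicate 2 (0.27, 0.20) or E17.5 replicate 2 (0.32, 0.13). Inhba, the activin gene, had 2 regions called in all epicardial libraries, its promoter and a coding exon at Inhba +5.8 kb (50.1, 57.5 and 56.7, then 53.6, 56.6 and 54.1), and neither passed the test.

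**Figure D4:**
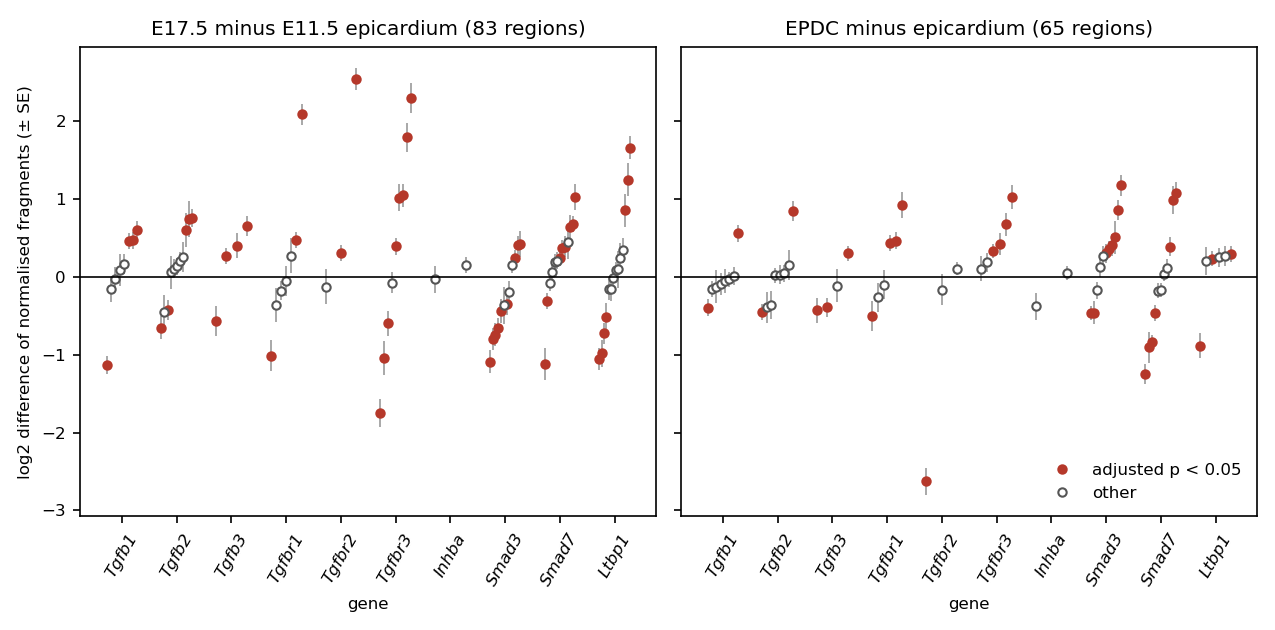
Log2 differences of normalised fragments (points, with SE as vertical lines) for the member regions of each gene (horizontal axis) between epicardial stages (left, 83 regions) and between EPDCs and epicardium (right, 65 regions); filled points passed the test. Tgfbr2 +22.3 kb is the highest point on the left, at 2.54, and the lowest on the right, at -2.63.

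Regions called in every library of one epicardial stage and none of the other have no fold change and were counted apart. There were 19 called at E17.5 only and 19 at E11.5 only among the 214 members called in epicardium, 8.88% in each direction, where the shares over all regions were 5.06% and 12.0%. With equally many top summits taken from each library, 12 members (6.94%) were E11.5-only, against 9.07% of all regions, and 16 (9.25%) were E17.5-only, against 8.16%. The strongest called at E17.5 only were Smad7 +20 kb, in an intron, with 107, 129.6 and 106 normalised fragments, and Tgfb1 -10.4 kb, between genes and nearest to the start of Tmem91, with 110.5, 114 and 105. Neither was called in EPDCs, nor was the internal Smad7 promoter region Smad7 +2.9 kb, with 74.7, 76.7 and 89.4. The strongest called at E11.5 only were Smad3 +14.9 kb, with 82.8, 64.4 and 72.5, and Smad3 -1.2 kb, with 65.4, 77.3 and 69.1.

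The E11.5-only and E17.5-only regions differed in how many were called in EPDCs. Of the 19 E11.5-only members, 11 were called in all 3 EPDC libraries and 6 in none, 57.9% and 31.6%, where the shares over all E11.5-only regions were 33.4% and 35.9%. Of the 19 E17.5-only members, 2 were called in all 3 EPDC libraries and 11 in none, 10.5% and 57.9%, where the shares over all E17.5-only regions were 11.8% and 67.7%. These counts were made after the values were seen and carry no test, and EPDCs came from E12.5 and E13.5, nearer in age to the E11.5 epicardium. The 11 belonged to Smad3 (4 regions), Ltbp1 (3), Tgfb2 (2), Tgfb3 and Tgfbr1. Smad3 +14.9 kb held 79.0, 97.1 and 94.6 in EPDCs, as high as at E11.5. Ltbp1 +61.9 kb had 23.98, 27.7 and 26.1 at E11.5 and 66.3, 114 and 78.2 in EPDCs, and Ltbp1 +114.1 kb had 18.5, 23.8 and 19.3 and 65.0, 61.4 and 57.5, so EPDCs were above E11.5 in every library at both. Of the 9 members at least 2-fold higher at E17.5, 4 were called in all EPDC libraries (44.4%, against 47.0% of all such regions), 4 in none (44.4%, against 23.7%) and 1 in a single library. Of the 7 at least 2-fold lower, 6 were called in all (85.7%, against 88.9%), 1 in 2 and 0 in none of them (against 2.04%).

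**Figure D5:**
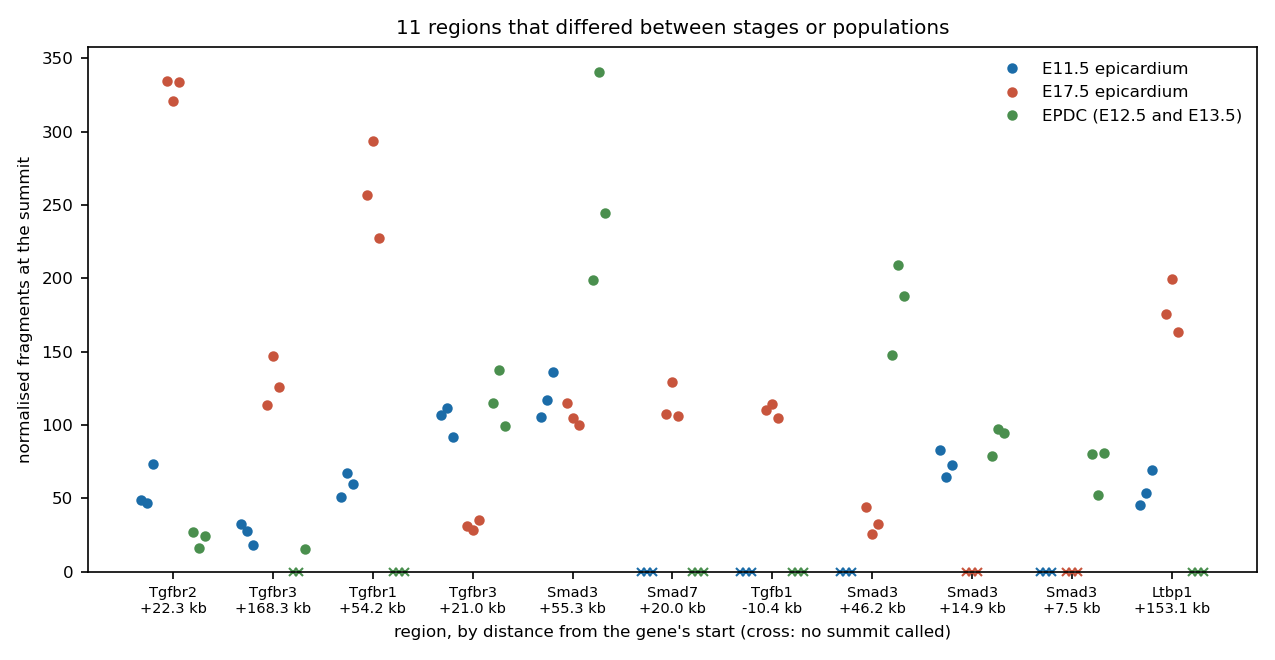
Normalised fragments in each library at 11 regions (horizontal axis; points by group, crosses at 0 for libraries with no summit called). Tgfbr2 +22.3 kb lies at 321 to 335 at E17.5 and 15.8 to 26.8 in EPDCs, and Smad3 +46.2 kb at 148 to 209 in EPDCs with no summit at E11.5.

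EPDCs were then compared with epicardium, to see which elements differed between epicardial cells and their mesenchymal derivatives. In the 65 members called in all 9 libraries, 21 were higher in EPDCs than the mean of both epicardial stages (32.3%), 13 lower (20%) and 31 did not pass the test, where 28.1% of all 45564 regions were higher and 26.9% lower. At least 2-fold, 3 were higher and 2 lower (4.62% and 3.08%), against 8.29% and 8.26% of all regions. With scaling by genome background, which placed the median of all regions at -0.31, the counts were 7 higher and 23 lower (5857 and 20616 of all regions); they were 9 and 13 by rank percentile (8020 and 11138) and 10 and 15 by fold enrichment (8546 and 9800). Against E11.5 alone, 17 members were higher and 11 lower (26.5% and 26.3% of all regions), and against E17.5 alone, 17 and 18 (28.9% and 28.3% of all regions).

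For Smad3, 6 of 11 regions were higher in EPDCs than the mean of both stages and 2 lower. Against E11.5 alone 3 were higher and 3 lower, and against E17.5 alone 7 and 2. Against the mean the counts were 2 and 2 by rank percentile and 2 and 3 by fold enrichment or with scaling by genome background. Smad3 +55.3 kb, an intronic region shown above, held 106, 117 and 136 normalised fragments at E11.5, 115.3, 105 and 99.8 at E17.5 and 199, 341 and 244 in EPDCs (log2 difference 1.18 ± 0.14 (SE), adjusted p = 7.27e-08), with no overlap between EPDCs and epicardium. Smad3 +79.7 kb held 146, 132 and 116, 122, 107 and 89.4 and 178, 243 and 222 in the same order (log2 difference 0.86 ± 0.13 (SE), adjusted p = 2.36e-06). By contrast Smad3 +11.7 kb, its strongest intronic region, was lower in EPDCs, at 177, 161 and 168 against 212 to 230.0 at E11.5 and, at E17.5, 237 to 255 (log2 difference -0.47 ± 0.09 (SE), adjusted p = 9.35e-05).

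Open mainly in EPDCs were 2 internal promoters of Smad3. Smad3 +46.2 kb was called in no E11.5 library, held 43.9, 25.6 and 32.2 normalised fragments at E17.5, and held 148, 209 and 188 in EPDCs. Smad3 +7.5 kb was called in no epicardial library and held 80.3, 52.5 and 80.9 in EPDCs. These start sites belong to shorter annotated protein-coding transcripts of Smad3, and accessibility does not show that they were used. Altogether 7 members (2.83%) were called in all EPDC libraries and no epicardial one, where 3.23% of all regions were. Without the E12.5 EPDC library there were 17 such members (6.88%, against 6.71% of all regions), and with equally many top summits 11 (5.14%, against 5.06%). Smad3 held 3 of the 7, and Inhba +9.2 kb, an intronic region of the activin gene, was among the weakest, with 16.6, 25.8 and 31.7.

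In the other direction 8 members (3.24%) were called in all 6 epicardial libraries and in no EPDC library, where 2.12% of all regions were. Ltbp1 held 4 of the 8, namely +153.1 kb, +250.6 kb, +238.8 kb and +340.6 kb, and the others were Tgfbr1 +54.2 kb, Tgfbr3 +132.0 kb, Smad7 -17.8 kb and Tgfb2 +20 kb. Ltbp1 +238.8 kb held 68.7, 97.1 and 82.7 at E11.5, against 43.9, 41.1 and 42.6 at E17.5, above the weakest called summit of each EPDC library.

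Smad7, the feedback inhibitor, had 4 regions lower and 3 higher in EPDCs, against 7 and 2 with scaling by genome background and 6 and 3 by rank percentile. Smad7 +42.9 kb held 152, 149 and 147 normalised fragments at E11.5, 182, 204 and 206 at E17.5 and 80.3, 56.5 and 83.6 in EPDCs (log2 difference -1.24 ± 0.13 (SE), adjusted p = 7.01e-09). Smad7 -4.3 kb held 131, 144 and 133 in EPDCs, below both stages (log2 difference -0.84 ± 0.10 (SE), adjusted p = 6.86e-08), and Smad7 +11.3 kb was above both (log2 difference 1.08 ± 0.14 (SE), adjusted p = 3.10e-07).

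Tgfb2 and the receptors had further regions that separated EPDCs from epicardium. Tgfb2 +42.5 kb held 178, 172 and 139 in EPDCs, above every epicardial library (log2 difference 0.85 ± 0.13 (SE), adjusted p = 2.82e-06), while Tgfb2 +2.9 kb, near the promoter, held 121, 152 and 146 against 170.0 to 185 at E11.5 and, at E17.5, 186 to 224 (log2 difference -0.45 ± 0.11 (SE), adjusted p = 7.55e-04), a call lost by fold enrichment (-0.27, 0.082). Tgfbr2 +52.2 kb was uncalled at E11.5, held 17.9, 14.6 and 13.52 at E17.5 and 84.1, 70.3 and 80.1 in EPDCs, so the intronic regions of Tgfbr2 at +22.3 kb and +52.2 kb had opposite orders in E17.5 epicardium and EPDCs. Ltbp1 +28.4 kb, shown above, was lower in EPDCs, at 40.8, 39.6 and 57.1 against 79.3 to 103 at E11.5 and, at E17.5, 71.8 to 91.3 (log2 difference -0.88 ± 0.16 (SE), adjusted p = 5.39e-05). The strongest region downstream of Tgfbr3, Tgfbr3 +202.2 kb, and that of Tgfb2, Tgfb2 +95.9 kb, passed the test in neither comparison (0.19 and 0.02 in EPDCs against epicardium, adjusted p = 0.18 and 0.87). Tgfb2 +95.9 kb was called higher at E17.5 with scaling by genome background (0.47, adjusted p = 0.0024) and higher in EPDCs by fold enrichment (0.20, 0.042).

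A further 39 genes of the pathway were counted in windows of the same kind, to be read against 29.8% of all regions that rose and 29.5% that fell between stages. Of the regions tested between stages, 35 of 86 rose and 17 fell at 11 genes of latency and activation (such as Ltbp2, Fbn1 and Thbs1), and 17 of 42 rose and 10 fell at 8 other ligands and receptors. By rank percentile these counts were 16 and 26 for latency and activation and 8 and 12 for the ligands and receptors, and by fold enrichment 18 and 16, and 6 and 8. The list counts in these settings are to be read against all 57768 regions. Of those, 6209 rose and 17718 fell by rank percentile, and 9696 and 10069 by fold enrichment. At 12 SMADs and regulators, 37 of 76 rose and 11 fell, a share of 48.7% against 29.8% of all regions; by rank percentile 12 rose and 12 fell, and by fold enrichment 12 and 6. The 37 included 7 of 12 regions of Ski, 5 of 6 of Skil and 6 of 9 of Fstl3, of which Ski and Skil restrain SMAD transcription and Fstl3 binds activin. Of the same list Fst, which also binds activin, had 2 of 4 regions that fell and none that rose, Smad4 had 1 that rose and 2 that fell, and Smurf1 had 2 and 3. At 8 target genes of the pathway (such as Ccn2 and Tagln), 14 of 40 rose and 12 fell, against 7 and 16 by rank percentile and 6 and 10 by fold enrichment. For Cdkn1a 4 of 6 rose and none fell, and for Tagln 3 of 4 fell and none rose. The genes named from these lists were chosen after their values were seen. Between EPDCs and epicardium the counts were 22 higher and 18 lower of 72, 9 and 9 of 34, 11 and 11 of 58, and 10 and 10 of 33 in the same order of lists, where 28.1% of all regions were higher and 26.9% lower. With scaling by genome background they were 10 and 33, 6 and 15, 3 and 22, and 6 and 14, and by fold enrichment 15 and 17, 10 and 3, 12 and 8, and 6 and 9. Of all 45564 regions, 5857 were higher and 20616 lower with scaling by genome background, and 8546 and 9800 by fold enrichment.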

How the data were processed

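Peak lists of 9 ATAC-seq libraries were analysed, grouped by their labels. Per the methods, reads of 40 bp went through the authors' run of nf-core atacseq 2.0 on mm10. Peaks were then called by MACS2 2.2.9.1 from paired fragments (q-value 0.01), and each interval could hold several summits. A peak therefore reflects whole fragments, not single cut sites. The deposited lists give each summit a fold enrichment (a ratio to local background) and −log10 p and −log10 q values that the authors' caller computed for 1 library at a time, with no normalization between libraries. From fold and p the whole number of fragments at each summit was worked out. This recovered whole numbers for 100% of summits (relative error under 0.0001) and was tested on simulated summits.

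Summits were extended by 250 bp to either side, and where windows overlapped only the one with the best depth-scaled score was kept. A library's value is its strongest summit inside the region, divided by a median-of-ratios scale factor; comparing the epicardial stages alone used factors from their 6 libraries, which moved the stages apart by 0.034 on the log2 scale against the printed values. Regions with a summit in every library compared were tested with limma 3.58.1 (R 4.3.3; trend, robust) on log2 fragments, with no pseudocount and Benjamini-Hochberg adjustment over all regions tested, at adjusted p under 0.05. The authors tested window counts with edgeR, which needs the reads and was not rerun. Positions were annotated with GENCODE M21, and sequences were read from the GRCm38 (mm10) assembly. The members and lists were chosen with earlier results of these data known. The text names, for each gene, its strongest promoter and strongest other region, and up to 10 member regions in each direction of both comparisons and of the regions called on one side only. Alternatives were cyclic loess, genome background scaling, rank percentile, fold enrichment, −log10 q of at least 5, overlapping intervals, at least 2 libraries per group, equally many (94909) top summits, a replicate block, leaving out each library and, added after the data were seen, a 2-fold call. E13.5 epicardium was not analysed here. A gene of the target list is not reported here.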

Additional observations from a re-analysis of the deposited data

How the results depend on the processing

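Depth limited the calls of absence: an uncalled summit may lie just under a threshold that was 9.38 to 16.6 normalised fragments, and read totals are unknown. P-values rest on 3 pools a group. Of 1374 alternative values for the named regions, 1228 kept their side of the threshold, and 100 lost and 25 gained a call. A further 21 changed sign with a call in the main or the alternative fit. Sign changes without a call in either fit were counted among the 1228. Leaving out a library, a replicate block, a stricter threshold, overlapping intervals or 2 libraries per group changed no sign among these regions where called; Smad7 -0.1 kb, named outside the rule, turned negative between stages with overlapping intervals (-0.093), by rank percentile and by fold enrichment.

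Between stages (30 higher, 20 lower), the 2-fold rule gave 9 and 7, genome background scaling 12 lower, rank percentile 15 higher and fold enrichment 16 higher, and leaving out a library 25 to 30 and 18 to 22. The replicate block gave 30 and 20, and same-numbered libraries were not paired (correlations -0.025, 0.0577 and -0.0886); it changed no call of a named region. Promoters (6 higher, 0 lower) became 1 and 1 by cyclic loess, 1 and 2 by rank percentile, and 0 and 2 by fold enrichment. Sign changes are listed only where the main or the alternative fit was called, so uncalled regions that changed sign are left out. By cyclic loess they were Smad3 -0.2 kb (-0.041) and Smad7 -24.5 kb (-0.011). By rank percentile (in percentile points) they were Tgfb3 -0.2 kb (-0.96), Tgfbr2 +0.1 kb (-1.36), Tgfbr3 +0.1 kb (-0.069), Smad3 -0.2 kb (-0.88) and Smad7 -24.5 kb (-1.83). By fold enrichment they were Tgfb3 -0.2 kb (-0.052), Tgfbr2 +0.1 kb (-0.29), Tgfbr3 +0.1 kb (-0.028), Smad3 -0.2 kb (-0.031), Smad7 -24.5 kb (-0.23), Ltbp1 +82.1 kb (0.16), Smad3 +90.7 kb (0.15), Smad3 +79.7 kb (0.28) and Smad7 +24.3 kb (-0.16). The causes were not tested.

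In EPDCs against epicardium (21 higher, 13 lower), the 2-fold rule gave 3 and 2, genome background scaling 7 and 23, rank percentile 9 higher, fold enrichment 10 higher and overlapping intervals 20 lower (of 80 tested). Promoters (5 higher, 0 lower) became 0 and 1 with background scaling, 0 higher by rank percentile and 1 higher by fold enrichment. Against E11.5 (17 higher), 6, 5 and 8 were higher in that order of settings, and against E17.5 (17 higher, 18 lower), background scaling gave 7 and 31 and fold enrichment 11 higher. Listed by the same rule, sign changes with background scaling were Tgfb3 -0.2 kb (-0.014), Smad7 -0.9 kb (-0.28) and Ltbp1 +172.9 kb (-0.086). By fold enrichment they were Ltbp1 +172.9 kb (-0.031) and Tgfbr3 +121.8 kb (-0.034). With equally many top summits 12 members were E11.5-only (19 before) and 11 EPDC-only (7 before); leaving out a library gave 7 to 17 EPDC-only.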
